A study of Mus musculus with 95 samples.

Results

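Kidneys of pristane-treated SNF1 mice were compared between week 2 and week 4 after the injection. The comparison took every sample labelled Pristane at these time points, 10 mice at week 4 and 9 at week 2, which are 19 of the 95 kidneys in the series. SNF1 mice are the F1 offspring of the SWR and NZB strains and are prone to lupus. All mice were female, and the pristane mice received the oil by intraperitoneal injection at 9 weeks of age. Untreated SNF1 mice of the same weeks, 9 at week 4 and 10 at week 2, were the controls, and these were age-matched per the study's methods. Total RNA of whole kidney was hybridised to Affymetrix mouse arrays, with 1 array per mouse, and values are log2 intensities after RMA, which corrects and summarises the probes of each probe set. No genotype was altered, so the groups differ in pristane and in time alone, as far as the labels tell.

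Pristane is a hydrocarbon oil that causes a lasting sterile inflammation of the peritoneum, with recruitment of monocytes and neutrophils and release of type I interferon. Type I interferon acts on a receptor that nearly all cells carry, those of the kidney included, and switches on a large set of antiviral genes. In lupus nephritis, immune complexes lodge in the glomerulus and bind complement and Fc receptors, and myeloid cells enter the tissue. In bulk RNA, a change in the number of cells of a type and a change in RNA per cell cannot be told apart.

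Array medians lay between 4.24 and 4.37 in the 4 groups, and correlations between the 19 pristane arrays lay between 0.9928 and 0.9976. No 2 arrays were identical, and the differences between 3′ and 5′ control probe sets of Gapdh and of actin overlapped between all groups. Medians of the hybridisation controls were lower at week 2 than at week 4 of the pristane mice, with overlapping ranges. The control cre had 15 (14.94 to 15.16) against 15.12 (15.05 to 15.17), and bioB had 9.95 (9.42 to 10.21) against 10.2 (9.77 to 10.61). Untreated medians at weeks 2 and 4 were 15.13 and 15.1 for cre and 10.2 and 9.81 for bioB. The array number limits the precision. No scan date is in the files used here, so array handling cannot be told apart from week. Mouse 1 of week 4 stood apart from its group. Its mean over 25 interferon-stimulated genes was 5.39, against 6.21 to 6.84 in the other 9 mice of week 4, 6.10 to 7.06 in the pristane mice of week 2 and 5.02 to 5.52 in the untreated mice of week 4. The library labelled week 4 pristane, mouse 1, thus had the interferon-stimulated level of untreated kidneys, and whether it was injected or labelled as stated was not tested. Results are given with and without it, and leaving it out is a choice made from its measured values.

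With all mice, 27 of 45037 probe sets (0.0600%) passed an adjusted p of 0.05 in limma, 10 higher and 17 lower at week 4. A single probe set, which has no gene name in the annotation, changed more than 2-fold. With 1 representative probe set per gene, 10 of 17097 genes (0.0585%) passed, 6 higher and 4 lower. Without mouse 1, 40 probe sets (0.0888%) and 21 genes (0.123%) passed, and 25 of these probe sets also passed with all mice, all in the same direction. When the dimmer probe sets were left out and only those above the 40th percentile of the mean over all 95 arrays were tested, 133 of 27022 probe sets (0.492%) and 55 of 12094 genes (0.455%) passed with all mice, 71 of the probe sets higher and 62 lower. Untreated kidneys gave 0 genes (0%) and 0 probe sets in limma between the same weeks, with 2649 probe sets at an unadjusted p under 0.05, and 3.02% of genes higher and 3.77% lower at that threshold. In the pristane mice 6.22% of genes were higher and 6.13% lower by the same measure, and without mouse 1 5.73% were higher.

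No interferon-stimulated gene passed between the weeks. Of 25 measured members none had an unadjusted p under 0.05 with all mice. Without mouse 1, 2 were higher at that threshold, Oas2 and Zbp1, beside 5.73% of all genes. Mouse 1 was set apart by its low values of these same genes, so the counts without it are no test of them. The median log2 change of the 25 was -0.01 with all mice and 0.06 without mouse 1, beside a median of 0 over all genes. Ifit1, an antiviral protein that binds foreign RNA caps, ranged from 6.6 to 8.75 (median 7.07) at week 2 and from 4.66 to 8.01 (median 7.17) at week 4. The lowest week 4 value was that of mouse 1, and the other 9 mice overlapped with week 2 from 6.71 upward. The log2 change of Ifit1 was -0.21 ± 0.35 (SE, adjusted p = 0.895 in limma) and turned to 0.04 ± 0.25 without mouse 1 (adjusted p = 1). Untreated kidneys lay far lower, between 3.04 and 4.47 at week 2 and between 3.75 and 4.98 at week 4.

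Other members of the pathway, none of which passed, had values as follows. Usp18, the protease that removes ISG15 and dampens the interferon receptor, had log2 changes of -0.29 ± 0.23 with all mice and -0.12 ± 0.16 without mouse 1. Irf7, the factor that amplifies interferon transcription, had -0.23 ± 0.23 and -0.10 ± 0.19 in the same order. Mx1, a GTPase that blocks viral replication, had -0.05 ± 0.26 and Oas3, which makes the activator of RNase L, had 0.22 ± 0.38 with all mice. The smallest adjusted p among these genes was 0.667, that of Oas3 without mouse 1. Slfn4, a Schlafen gene of myeloid cells, spread more widely, from 2.83 to 6.88 (median 5.14) at week 2 and from 2.49 to 8.84 (median 6.45) at week 4, and did not pass (log2 change 1.21 ± 0.70, adjusted p = 0.611).

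Genes of myeloid cells had higher values at week 4 than at week 2. None passed with all mice, and several rose by the same test once mouse 1 was left out. Mouse 1, left out for its measured values, was low for many of these genes as well. The calls without it are therefore no independent support. S100a8, a subunit of the neutrophil and monocyte protein calprotectin, lay between 3.25 and 5.72 (median 3.97) at week 2 and between 3.11 and 9.25 (median 7.08) at week 4. Mouse 1 held the lowest value, while 8 mice of week 4 exceeded all mice of week 2. The difference of S100a8 was 5.85-fold with all mice (log2 change 2.55 ± 0.58, adjusted p = 0.104) and 7.73-fold without mouse 1 (2.95 ± 0.42, adjusted p = 0.025). Untreated kidneys stayed between 2.52 and 3.41 at both weeks.

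S100a9, its partner subunit, lay between 4.42 and 6.87 (median 5.99) at week 2. At week 4 mouse 1 had 3.58 and the other 9 mice had 6.52 to 9.26. The log2 change was 1.81 ± 0.58 (adjusted p = 0.234) with all mice and 2.24 ± 0.39 (adjusted p = 0.0369) without mouse 1. Adgre1, which encodes the macrophage surface protein F4/80, lay between 2.91 and 3.48 (median 3.33) at week 2 and between 3.29 and 5.16 (median 4.09) at week 4, with mouse 1 lowest. The other 9 mice of week 4, from 3.60 upward, lay above all mice of week 2. Adgre1 did not pass with all mice (0.89 ± 0.19, adjusted p = 0.0750) and rose without mouse 1 (0.98 ± 0.17, adjusted p = 0.0369). These genes sit low on the array scale, whose floor is 2.21.

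**Figure D1:**
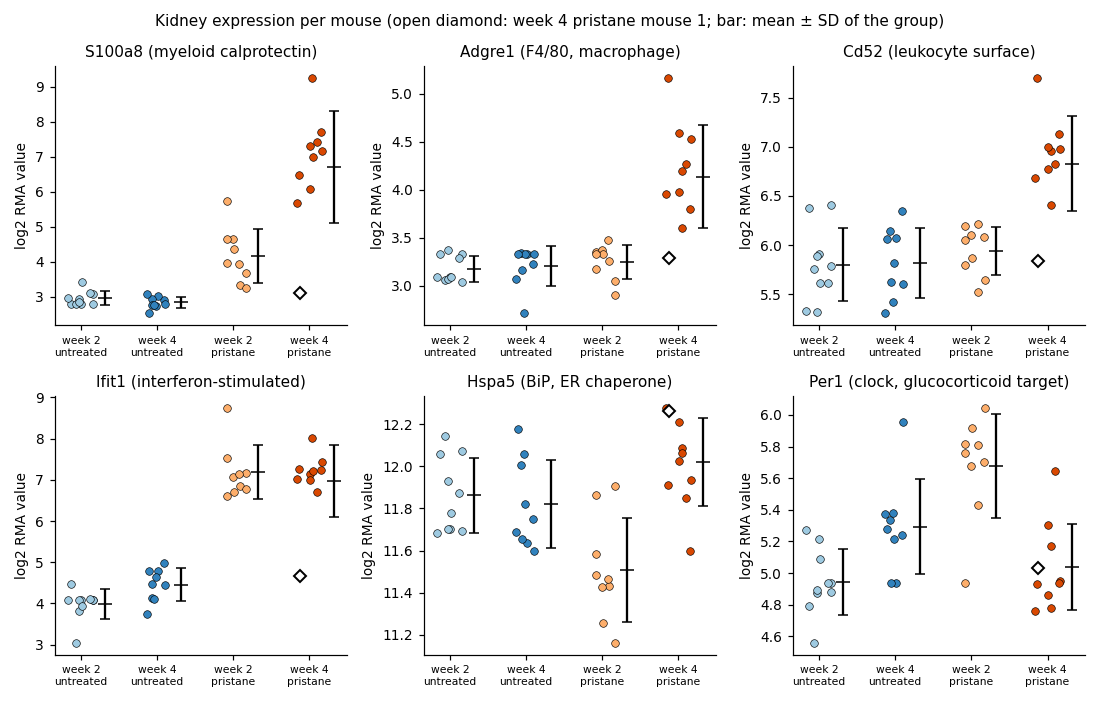
Log2 RMA values of 6 genes in each mouse of the 4 groups (y axis), with the group mean ± SD beside the points and an open diamond for mouse 1 of week 4 pristane. For S100a8, Adgre1 and Cd52 most week 4 pristane mice lie above the week 2 mice and mouse 1 lies with the lower groups, for Ifit1 the week 4 and week 2 pristane mice overlap, with mouse 1 at 4.66, and for Hspa5 and Per1 mouse 1 lies within its group.

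Cd52, a short glycoprotein anchored on leukocytes, ranged from 5.53 to 6.21 at week 2 and from 5.84 to 7.70 at week 4, where all mice but mouse 1 were above week 2. It rose without mouse 1 (log2 change 0.99 ± 0.14, adjusted p = 0.025), and was 0.88 ± 0.18 with all mice (adjusted p = 0.0705). Cd14, the coreceptor for lipopolysaccharide, rose by 0.69 ± 0.12 without mouse 1 (adjusted p = 0.0419). Ccl9, a chemokine for myeloid cells, ranged from 5.59 to 6.11 at week 2 and, mouse 1 apart at 5.41, from 6.37 to 7.85 at week 4, and rose without mouse 1 by 1.02 ± 0.17 (adjusted p = 0.0369). Fyb, an adaptor of T cells and myeloid cells, rose by 1.17 ± 0.21 (adjusted p = 0.0474), Arhgap30 by 1.23 ± 0.16 (adjusted p = 0.0221) and Csprs by 0.91 ± 0.14 (adjusted p = 0.0329), all without mouse 1. The remaining genes that passed without mouse 1 and not with all mice are not myeloid markers. Cpox, an enzyme of haem synthesis, rose by 0.36 ± 0.06. Smarcc2, a chromatin remodelling subunit, and Slc25a35, a mitochondrial carrier, fell by 0.27 and 0.39 on the log2 scale.

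These 12 genes passed without mouse 1 and not with all mice, and all 12 had an unadjusted p under 0.05 with all mice. In the 19 fits that each left out 1 mouse, 11 of the 12 passed in 1 fit, that without mouse 1. Smarcc2 passed in 3. Above the 40th percentile of mean value with all mice, S100a8 (adjusted p = 0.0411), Adgre1 (0.0344), Cd52 (0.0306), Cd14 (0.0398) and Fyb (0.0333) passed in limma with mouse 1 kept, and S100a9 (0.115), Ccl9 (0.0682) and Arhgap30 (0.0541) did not. The mean that sets this percentile includes the arrays where these genes were high, so these calls are not independent support.

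With all mice 1 gene, Rab7b (0.00585% of genes), had every week 4 mouse above every week 2 mouse, and 2 genes, Mtarc2 and Cbs (0.0117%), had every week 4 mouse below. Without mouse 1, 7 genes (0.0409%) were higher without overlap: Ccl9, Rab7b, Arhgap30, Apol11b, Tyrobp, Adgre1 and Cd52. A further 3 (0.0175%) were lower without overlap, Mtarc2, Cbs and Smarcc2. Because mouse 1 was left out for its measured values, the counts without it describe the other mice and are no test.

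Macrophage and monocyte markers had the highest median of the 56 gene lists. Of 17 measured macrophage and monocyte markers, 16 had a change above 0, and the median log2 change was 0.52, beside 0 for all genes. At an unadjusted p under 0.05, 11 were higher and 0 lower, beside 6.22% and 6.13% of all genes. Without mouse 1 the median was 0.62, and 13 were higher at that threshold, beside 5.73% of all genes. In that fit 2 of the markers passed, Adgre1 and Cd14. The median of the same markers in untreated mice was 0.04. Lyz2, the lysozyme of macrophages, lay between 7.99 and 9.24 at week 2 and between 9.04 and 10.10 at week 4, where 8 of 10 mice exceeded all week 2 mice, and did not pass (log2 change 0.76, adjusted p = 0.0815). The mean of the list per mouse ran from 4.59 to 4.92 at week 2 and from 4.60 to 5.97 at week 4, and 9 of 10 week 4 mice were above all week 2 mice. Mouse 1 was the exception.

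Receptors that bind immune complexes or present antigen also had medians above 0. Of 7 measured genes in the Fc gamma receptor list, 5 were higher at an unadjusted p under 0.05 (median log2 change 0.44), beside 6.22% of all genes. Tyrobp, the signalling adaptor of many myeloid receptors, ranged from 5.91 to 6.72 at week 2 and from 6.42 to 8.32 at week 4 (0.80 ± 0.20, adjusted p = 0.124), and Fcgr4 had 0.44 ± 0.21 (adjusted p = 0.481). Of 8 MHC class II genes 4 were higher at an unadjusted p under 0.05 (median 0.40), among them H2-Ab1, which ranged from 7.78 to 8.51 at week 2 and from 8.19 to 9.28 at week 4 (0.56 ± 0.14, adjusted p = 0.132). None of either list passed with all mice or without mouse 1.

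Of 13 CC chemokines and receptors, 6 were higher at an unadjusted p under 0.05 (median 0.43), and Ccl9 passed without mouse 1. The shares of all genes at that threshold were 6.22% higher and 6.13% lower. Ccl12, a ligand of the monocyte receptor CCR2, lay between 3.40 and 4.99 at week 2, at 2.82 in mouse 1 and between 4.78 and 6.67 in the other week 4 mice (0.93 ± 0.36 with all mice, adjusted p = 0.357, and 1.19 ± 0.25 without mouse 1, adjusted p = 0.0851). In the complement list 5 of 12 genes were higher at an unadjusted p under 0.05 and 1 was lower, C2, a serine protease of the classical pathway (-0.23, adjusted p = 0.140). C5ar1, the receptor of the C5a fragment, had a log2 change of 0.89 (adjusted p = 0.117), while C4b, which C2 binds, had -0.51 ± 0.30 (adjusted p = 0.617). The median of the complement list was 0.27 in pristane mice and 0.12 in untreated mice. Of its genes 2 were higher and 0 lower in untreated mice at that threshold, beside 3.02% and 3.77% of all genes. Of 11 adhesion molecules 5 were higher at an unadjusted p under 0.05 in pristane mice, among them Icam1, the endothelial ligand of leukocyte integrins, at 0.53 (adjusted p = 0.250). Itgam is in both this list and the macrophage list, and other lists share members too, so they are not separate observations.

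At an unadjusted p under 0.05, 6.22% of all genes were higher and 6.13% lower. The neutrophil list had 11 measured members, of which 5 were higher at that threshold and 2, S100a8 and S100a9, passed without mouse 1. Its median log2 change was 0.11, and the neutrophil markers Csf3r, the receptor of G-CSF, and Mmp8, a collagenase, were at the floor of 2.21 in every pristane mouse of both weeks. Lymphocyte markers lay near 0. The median log2 change was 0.0026 for 15 T and NK cell markers, of which 1, Prf1, was lower at an unadjusted p under 0.05 (-0.18, adjusted p = 0.181), and 0 for 9 B cell markers, with none past that threshold. In the plasma cell and immunoglobulin list 2 of 7 measured genes were higher and 0 lower at an unadjusted p under 0.05, with a median of 0.07. Its mean per mouse was above all week 2 mice in 7 of the 10 week 4 mice. Jchain of that list, which joins secreted IgM and IgA, had a log2 change of 1.07 with an adjusted p of 0.313.

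**Figure D2:**
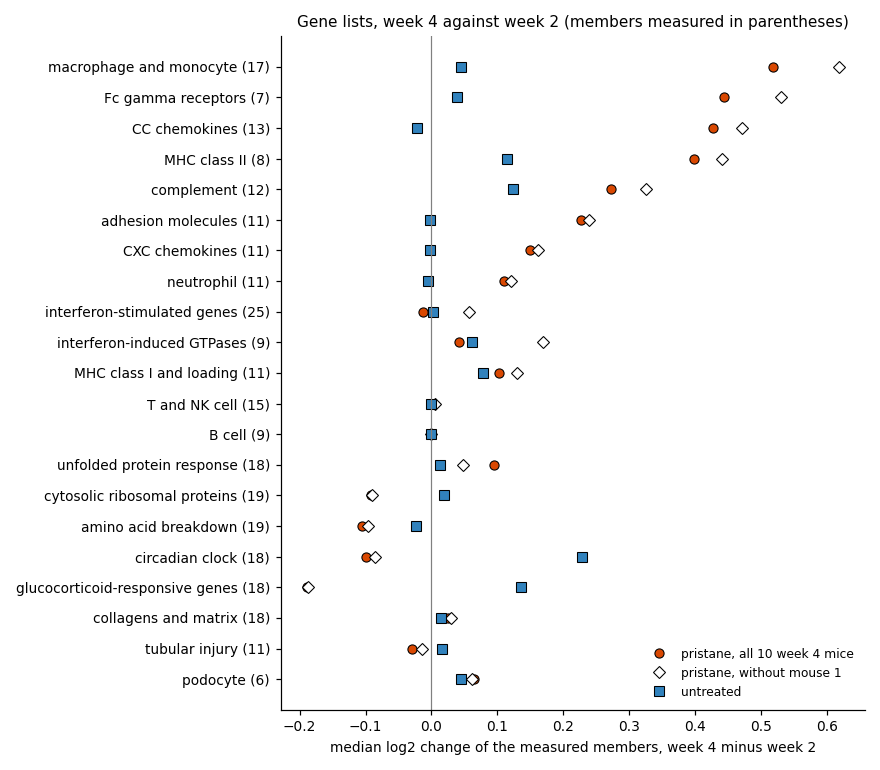
Median log2 change (x axis, week 4 minus week 2) of the measured members of 21 gene lists, for all pristane mice, for the pristane mice without mouse 1 and for untreated mice. Macrophage, Fc gamma receptor, CC chemokine and MHC class II lists lie between 0.40 and 0.52 with all pristane mice and at or under 0.11 in untreated mice, and the interferon-stimulated list lies at -0.01.

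No marker of tubular injury or scarring passed. Lcn2, an iron-binding protein of injured tubules and of neutrophils, lay between 4.89 and 6.51 at week 2 and between 5.58 and 7.27 at week 4, and did not pass (log2 change 0.68 ± 0.22, adjusted p = 0.250). Havcr1, the tubular injury protein KIM-1, had -0.03 ± 0.10, and Col1a1, the main fibrillar collagen, had 0.30 ± 0.22. The medians were -0.03 for 11 tubular injury genes, 0.02 for 18 collagen and matrix genes and 0.07 for 6 podocyte markers. In each list 2 genes were higher and none lower at an unadjusted p under 0.05, beside 6.22% and 6.13% of all genes. Fos, an immediate early gene, had 0.13 ± 0.33.

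The 10 genes that passed with all mice changed little, at most 1.62-fold. Becn1, the core scaffold of the kinase complex that starts autophagosomes, lay between 10.79 and 11.06 (median 10.90) at week 2 and between 11.04 and 11.35 (median 11.22) at week 4, with 9 of 10 week 4 mice above all of week 2. It rose by 0.30 ± 0.04 (adjusted p = 0.0293) and passed in 16 of 19 fits that left out 1 mouse. The untreated means of Becn1, 11.14 at week 2 and 11.1 at week 4, lay between the pristane means of 10.92 and 11.22. Atp6v1a is the catalytic subunit of the proton pump that acidifies lysosomes and lets intercalated cells secrete acid. In pristane mice it ranged from 11.47 to 11.80 at week 2 and from 11.67 to 11.99 at week 4. It rose by 0.28 ± 0.05 (adjusted p = 0.0293). Its untreated means, 11.78 and 11.79, also lay between the pristane means, 11.6 and 11.88. Rab7b, a small GTPase of late endosomes and the Golgi, ranged from 5.31 to 5.62 and from 5.67 to 6.27 in pristane mice, with no overlap. It rose by 0.43 ± 0.07 (adjusted p = 0.0374), and its untreated means, 5.32 and 5.44, lay below both pristane means.

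Among the other rises, Sox11, a developmental transcription factor, lay between 4.62 and 5.34 at week 2 and between 5.20 and 6.10 at week 4 (0.70 ± 0.12, adjusted p = 0.0358). Its untreated values, between 5.20 and 6.42 over both weeks, lay mostly above the pristane mice of week 2. Ttr, which carries thyroxine and retinol-binding protein, went from 9.71 to 10.47 at week 2 to 10.44 to 10.96 at week 4 (0.60 ± 0.11, adjusted p = 0.0394), and in untreated mice its log2 change was -0.62 (adjusted p = 0.766). Abracl rose by 0.34 ± 0.06 (adjusted p = 0.0293), and in untreated mice its log2 change was 0.12 (adjusted p = 0.831).

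The 4 falls were small. Selenbp1, a selenium-binding methanethiol oxidase, lay between 11.82 and 12.20 at week 2 and between 11.68 and 11.89 at week 4 and fell by 0.27 on the log2 scale (SE 0.04, adjusted p = 0.0293). Park7, the redox-sensing protein DJ-1, fell by 0.20 (SE 0.04, adjusted p = 0.0394), and Mtarc2, a molybdenum enzyme that reduces N-hydroxylated compounds, fell by 0.26 (SE 0.04, adjusted p = 0.0394), with no overlap between 11.44 to 11.71 at week 2 and 11.16 to 11.40 at week 4. R3hdm4 fell by 0.31 (SE 0.05, adjusted p = 0.0413) and did not pass without mouse 1 (adjusted p = 0.0588). Untreated mice had changes of the same sign, none of which passed. They were -0.14 for Selenbp1, -0.13 for Mtarc2, -0.17 for R3hdm4 and -0.07 for Park7. The pristane change minus the untreated change did not pass in limma for any of the 4 genes (adjusted p from 0.671 to 0.838). Cbs, which begins the conversion of homocysteine to cysteine, had 9.43 as its lowest value at week 2 and as its highest at week 4 after rounding, and missed the threshold (-0.29 ± 0.05, adjusted p = 0.0522). Its change in untreated mice was close to that, at -0.25 (adjusted p = 0.477).

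**Figure D3:**
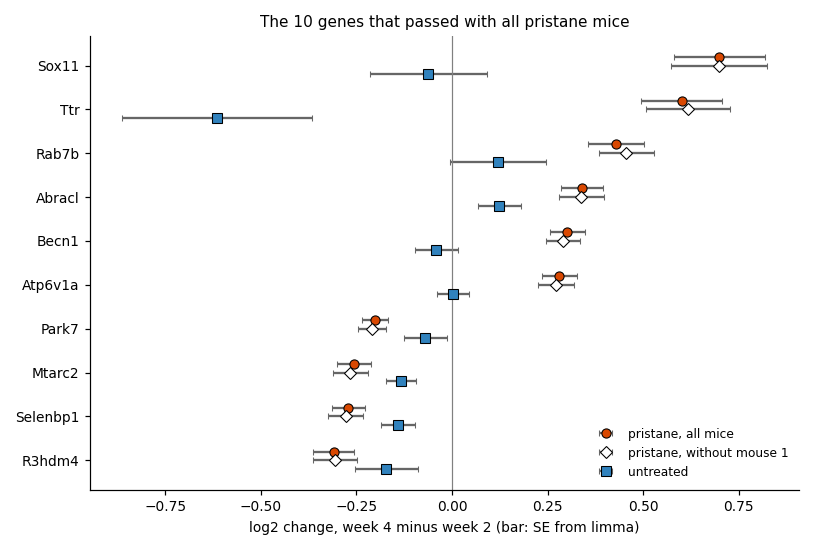
Log2 change (x axis, week 4 minus week 2) with the SE from limma for the 10 genes that passed with all pristane mice, beside the change without mouse 1 and in untreated mice. The pristane changes run from -0.31 for R3hdm4 to 0.70 for Sox11 and hardly shift without mouse 1, while the untreated change of Ttr, at -0.62, lies on the other side of 0.

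These 10 genes passed in 5 to 16 of the 19 fits that left out 1 mouse each. With the adrenal cortex signal of each kidney as a covariate, 2 of the 10, Selenbp1 and Park7, still passed. The others lost the call and kept their direction. Their log2 changes were then 0.60 for Sox11, 0.52 for Ttr, 0.38 for Rab7b and 0.26 for Abracl. Becn1 had 0.27, Atp6v1a 0.24, Mtarc2 -0.25 and R3hdm4 -0.31. Why the calls were lost was not tested. Other probe sets of the same gene did not always follow. A second Atp6v1a probe set had a log2 change of 0.10 (adjusted p = 0.680), 2 further Becn1 probe sets had 0 and -0.10, a second Rab7b probe set had -0.02 and a second Ttr probe set had 0.40 (adjusted p = 0.296). A second R3hdm4 probe set passed in the same direction (-0.31, adjusted p = 0.0293), and 2 others had -0.02 each. The 5 other probe sets of Sox11 had changes from -0.01 to 0.30, and none passed. Of the 27 passing probe sets 8 were not the brightest of their gene, among them those of Mmut, the methylmalonyl-CoA mutase (-0.27, adjusted p = 0.0160), Vasn (-0.42, adjusted p = 0.0160), the autophagy genes Gabarapl1 (-0.21) and Nbr1 (-0.25), and Cox5a (0.28), and the brightest probe set of each of these genes did not pass. Another 9 had no gene name.

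Chaperones of the endoplasmic reticulum had higher values at week 4, without passing over all probe sets. Hspa5, the chaperone BiP, lay between 11.16 and 11.91 (median 11.46) at week 2 and between 11.60 and 12.28 (median 12.04) at week 4, where 8 of 10 mice exceeded all of week 2. Mouse 1, at 12.26, was among the highest. Hspa5 missed the threshold over all probe sets (log2 change 0.51 ± 0.10, adjusted p = 0.0728) and passed above the 40th percentile (adjusted p = 0.0306). Untreated mice lay between 11.60 and 12.18 over both weeks, so that week 2 of the pristane mice held the low values. Hsp90b1, the chaperone GRP94, had 0.46 ± 0.12 (adjusted p = 0.125) and Calr, calreticulin, 0.16 ± 0.07 (adjusted p = 0.408). Of 18 unfolded protein response genes 5 were higher and 2 lower at an unadjusted p under 0.05 (6.22% and 6.13% of all genes), with a median of 0.10. Without mouse 1, which had the highest list mean of its group, 3 were higher and 2 lower and the median was 0.05. The 2 lower genes were Herpud1, of the degradation machinery of the endoplasmic reticulum, at -0.37 ± 0.11 (adjusted p = 0.173), and Ddit3, the stress transcription factor CHOP, at -0.19 ± 0.07 (adjusted p = 0.327).

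Chaperone genes of this compartment carry the endoplasmic reticulum stress element, read by ATF6 with NF-Y, which has the letters CCAAT, 9 bases of any kind and CCACG. Both strands of the RefSeq promoter windows, 250 bases before to 50 after the start of transcription, were searched for it as the only motif. It was in 39 of 32851 windows (0.119%) and in those of 5 of the 16 list members with a window. The stretches that hold it in Hspa5, Hsp90b1 and Calr are shown because these chaperones were among the 5 genes higher with all mice, Calr not without mouse 1 (unadjusted p = 0.0523). They come from the GRCm38.p6 assembly, are written 5′ to 3′ on the strand of the gene and have the motif in capitals. They lie at chr2:34771990-34772089 (plus strand), chr10:86705577-86705676 (minus strand) and chr8:84847014-84847113 (minus strand).
Hspa5: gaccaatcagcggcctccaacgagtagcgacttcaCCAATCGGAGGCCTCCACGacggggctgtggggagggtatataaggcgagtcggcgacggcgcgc
Hsp90b1: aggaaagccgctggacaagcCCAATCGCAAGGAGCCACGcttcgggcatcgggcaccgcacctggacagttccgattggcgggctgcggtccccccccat
Calr: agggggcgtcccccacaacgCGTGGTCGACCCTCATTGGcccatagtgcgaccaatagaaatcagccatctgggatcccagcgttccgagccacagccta
Calr holds the motif on the opposite strand, and Hsp90b1 holds a second match nearer to its start that is not shown. The other 2 members with a match, Pdia6 and Creld2, had log2 changes of 0.12 and 0.07 and were not past an unadjusted p of 0.05. A match is a description of these letters and not a bound site.

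Enzymes of amino acid breakdown and cytosolic ribosomal proteins had medians below 0. Of 19 amino acid breakdown genes 9 were lower and 0 higher at an unadjusted p under 0.05, with a median of -0.11. The share of all genes lower at that threshold was 6.13%. In untreated mice 5 genes of the list were lower, beside 3.77% of all genes. Hpd, which breaks down tyrosine, ranged from 10.36 to 11.84 at week 2 and from 9.18 to 11.56 at week 4, with 4 week 4 mice below all of week 2, and did not pass (-0.89 ± 0.23, adjusted p = 0.140). Bhmt, which remethylates homocysteine, and Prodh, which degrades proline, had -0.55 (adjusted p = 0.429) and -0.39 (adjusted p = 0.209). Of 19 ribosomal protein genes 7 were lower at an unadjusted p under 0.05 (median -0.09), with the largest change in Rpsa, at -0.20 (adjusted p = 0.0741). In untreated mice the ribosomal median was 0.02.

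A difference between pristane and untreated mice in the change from week 2 to week 4 was tested as an interaction, and 14 probe sets passed (0.0311%), 2 higher and 12 lower in pristane. Of these 10 had no gene name, and 2 were the representatives of a gene (0.0117% of genes), Per1 and Ddit3. Per1, a clock repressor that glucocorticoids also induce, lay between 4.93 and 6.05 (median 5.76) at week 2 and between 4.76 and 5.64 (median 4.94) at week 4 in pristane mice. In untreated mice it lay between 4.56 and 5.27 (median 4.92) at week 2 and between 4.93 and 5.96 (median 5.28) at week 4, so the order of the weeks was turned. The pristane change was -0.64 ± 0.14 (adjusted p = 0.0751), the untreated change 0.35 (adjusted p = 0.670) and their difference -0.99 ± 0.18 (adjusted p = 0.0318). Ddit3 differed in the same sense, with a pristane change of -0.19, an untreated change of 0.27 and a difference of -0.46 ± 0.09 (adjusted p = 0.0398). Of 38 interaction fits that each left out 1 mouse, Per1 passed in 31 and Ddit3 in 13.

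The 4 genes with the next smallest adjusted p, all 0.0558, did not pass. Susd3 had a difference of -0.77 ± 0.16, Alas1, the first enzyme of haem synthesis, had -0.61 ± 0.13, Osbpl9, a lipid transfer protein, had -0.59 ± 0.12 and Becn1 had 0.34 ± 0.07. At an unadjusted p under 0.05, 3.90% of genes were lower and 4.40% higher in pristane. In this interaction test, 9 of 18 clock genes were lower and 1 higher at that threshold, and 5 of 18 glucocorticoid-responsive genes were lower and 0 higher. Between the pristane weeks alone, 3 clock genes were lower and 1 higher (median -0.10). In untreated mice 3 clock genes were lower and 9 higher (median 0.23). Of the glucocorticoid-responsive genes, 4 were lower and 2 higher in pristane mice (median -0.19), and 0 lower and 5 higher in untreated mice (median 0.14). The hour of collection is not in the sources used here. Fkbp5, the chaperone that feeds back on the glucocorticoid receptor, had a difference of -1.05 ± 0.26 (adjusted p = 0.136), Zbtb16 one of -1.72 ± 0.37 (adjusted p = 0.0699) and Dbp, a clock output factor, one of -0.59 ± 0.23 (adjusted p = 0.545). The pristane and untreated changes were -0.30 and 0.75 for Fkbp5, -0.39 and 1.3 for Zbtb16 and -0.19 and 0.40 for Dbp. Klf15, a glucocorticoid target that drives amino acid breakdown, had a pristane change of -0.56 ± 0.14 (adjusted p = 0.117). Of the 35 measured members of both lists, 26 had a pristane change below the untreated change. The share of all genes with such an order was not counted, so nothing particular to these lists can be read from the 26. The adrenal cortex, which makes glucocorticoids, had marker levels with changes of the same signs in these libraries, and a fit with that signal as a covariate is given below.

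**Figure D4:**
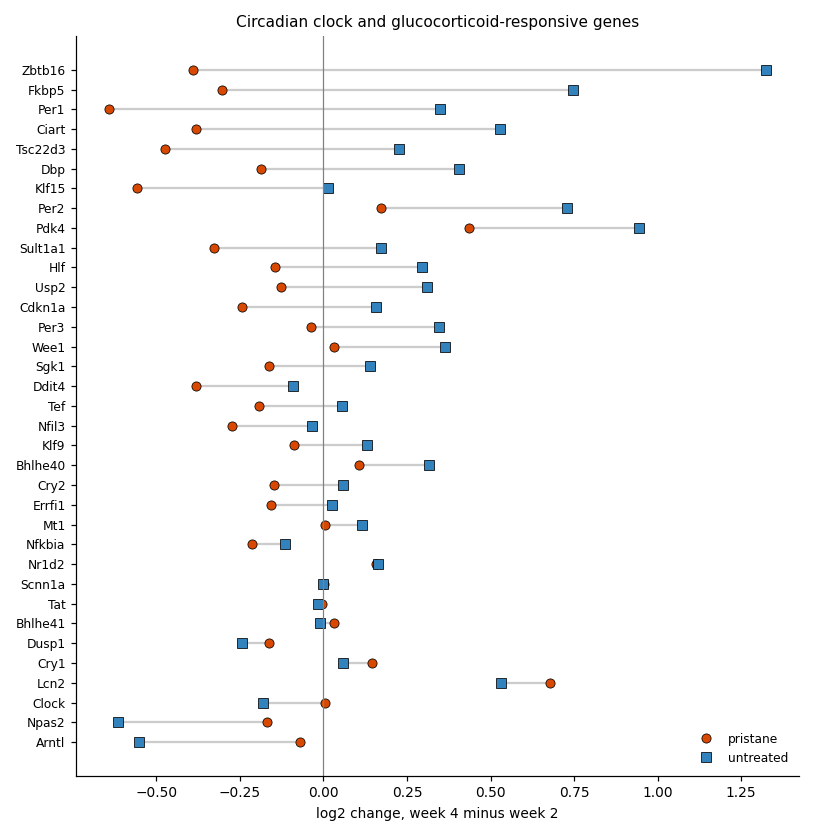
Log2 change (x axis, week 4 minus week 2) of each of 35 circadian clock and glucocorticoid-responsive genes in pristane mice and in untreated mice, joined by a line and ordered by their difference. For 26 genes the pristane change lies below the untreated change, with Per1 at -0.64 and 0.35, and the share of all genes with this order was not counted.

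Without mouse 1, 11 genes (0.0643%) passed the same interaction test, 7 higher and 4 lower in pristane. The 7 higher were S100a8 (difference 3.07, adjusted p = 0.00115), S100a9 (2.42, 0.0170), Clec4d, a C-type lectin of monocytes and neutrophils (1.76, 0.0413), Apol11b (1.25, 0.0450), Ccl12 (1.20, 0.0467), Arhgap30 (1.15, 0.0289) and Adgre1 (0.95, 0.0283). The 4 lower were Per1, Ddit3, Susd3 and Snrk. All 14 probe sets that passed with all mice passed again. Of the 7 higher genes none passed with all mice, where the difference of S100a8 was 2.67 ± 0.59 (adjusted p = 0.0744). Mouse 1, left out for its measured values, was low for these 7 genes too, so their calls without it are no independent support.

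Markers of the adrenal gland and of perirenal fat, tissues that lie against the kidney, varied widely between mice. Of 10 adrenal cortex markers 8 were lower at week 4 of the pristane mice at an unadjusted p under 0.05, beside 6.13% of all genes. None passed, and the median log2 change of the markers was -2.25. Star, which carries cholesterol into mitochondria for steroid synthesis, lay between 5.21 and 11.03 (median 9.85) at week 2 and between 4.99 and 10.40 (median 6.89) at week 4 (-2.30 ± 0.87, adjusted p = 0.336). Cyp11b1, the last enzyme of corticosterone synthesis, lay between 2.21 and 9.25 at week 2 and between 2.21 and 7.79 at week 4 (-3.36 ± 1.01, adjusted p = 0.199). The mean of the list per mouse ran from 4.44 to 9.06 (median 8.09) at week 2 and from 4.34 to 8.39 (median 5.95) at week 4. Untreated mice ran from 4.31 to 8.48 (median 4.54) and from 4.32 to 8.57 (median 7.07), the opposite order of the weeks.

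Th, the first enzyme of catecholamine synthesis and a marker of the adrenal medulla, had -1.28 ± 0.69 (adjusted p = 0.562), and 3 of 7 medulla markers were lower at an unadjusted p under 0.05. Of 8 perirenal fat markers 1 was lower and 1 higher at that threshold (median -0.61). Adipoq, the fat cell hormone adiponectin, ranged from 6.73 to 9.15 at week 2 and from 4.13 to 9.43 at week 4, and mouse 1 had the highest list mean of its group, 9.22. With the adrenal cortex signal as a covariate no probe set passed the interaction test in limma. Per1 and Ddit3 lost their calls, with differences of -0.96 and -0.49 (adjusted p = 0.0849 for both), and the difference was -1.05 for Fkbp5, -1.87 for Zbtb16 and -0.54 for Dbp. With the same covariate the change between the pristane weeks was 2.65 for S100a8, 0.81 for Adgre1 and 0.52 for Hspa5, none of which passed. The part of fat tissue in the metabolic values was not tested.

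**Figure D5:**
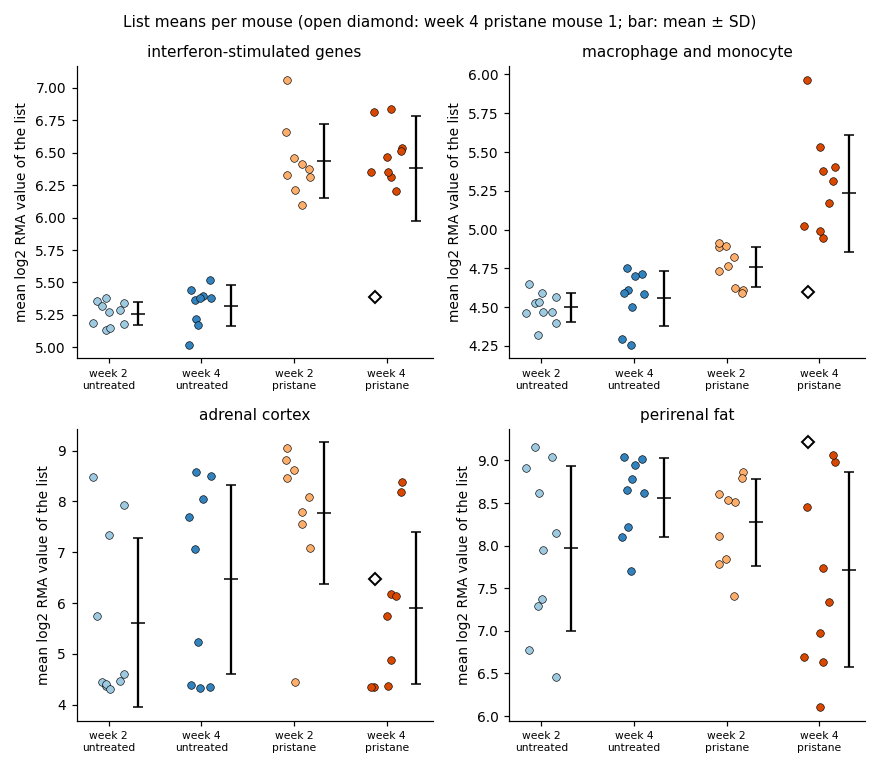
Mean log2 RMA value of 4 gene lists (y axis) in each mouse of the 4 groups, with the group mean ± SD and an open diamond for mouse 1 of week 4 pristane. Mouse 1 lies among the untreated mice in interferon-stimulated genes. In macrophage and monocyte markers, at 4.60, it lies within the untreated ranges and at the low end of week 2 pristane (4.59 to 4.92). Adrenal cortex and perirenal fat means spread widely in every group, the adrenal means of week 2 pristane from 4.44 to 9.06.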

How the data were processed

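Kidney RNA was labelled with the NuGEN Ovation Biotin system and hybridised to Affymetrix arrays. The deposited values are log2 intensities that the authors normalised by RMA. The submitters' processing notes name Partek, and the study's methods name R with Bioconductor for the mouse arrays. Of 45141 probe sets, 104 controls were left out. From the array's annotation, 28898 of the 45037 tested had 1 gene symbol, 551 several and 15588 none. For each of 17097 genes the brightest probe set, by its mean in the 95 arrays, stood for the gene.

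Groups were fitted with lmFit and eBayes of limma 3.58.1 in R 4.3.3, weeks 2 and 4 alone, with Benjamini-Hochberg adjustment over all probe sets. A gene passed at an adjusted p under 0.05. The interaction used all 4 groups. The fit was tested on simulated data. The 56 gene lists had 801 members, of which 689 were measured, and were described by counts and medians.

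Members and lists were chosen with earlier results of these data known. Genes named by rule were those that passed with all mice, 25 genes picked for their roles (Isg15 and C3 had no value here) and the 5 smallest adjusted p of the interaction, ties kept. All others were chosen after their values were seen. Replicate numbers did not pair mice. Alternatives were other normalisations, filters, models, thresholds and leaving out each mouse.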

Additional observations from a re-analysis of the deposited data

Results flagged for a closer look

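Among 60 genes named in the text, the 2 pristane groups gave 120 sets of mice, and in 20 the lowest or highest mouse stood far from the others by Dixon's criterion, which chance meets in about 1 set in 20. Mouse 1 of week 4 was that mouse in 11. Several of the genes were named because they passed without mouse 1, and others are the interferon-stimulated genes that set it apart. The sets are also not independent of each other, so the 20 and the 11 cannot be weighed against the rate of 1 in 20. It was lowest for S100a9 (3.58), Arhgap30 (4.80), Csprs (5.69), Cpox (8.62), Ifit1 (4.66), Usp18 (5.09), Rtp4 (4.68), Xaf1 (6.67), Slfn4 (2.49) and Ccl12 (2.82), and highest for Slc25a35 (6.83). Others at week 4 were mouse 4, highest for Col1a1 (8.46, next 7.12), and mouse 5, lowest for Dbp (6.20, next 6.73).

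At week 2, mouse 9 was highest for Ifit1 (8.75, next 7.54) and Rtp4 (8.30). Mouse 8 was lowest for Star (5.21, next 8.56) and Cyp11b1 (2.21, next 7.35), mouse 6 for Ccl9 (5.59), mouse 3 for Havcr1 (3.81) and mouse 2 for Tyrobp (5.91).

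The change from week 2 to week 4 differed between pristane and untreated mice, by the interaction test in limma, for 14 probe sets, among them those of Per1 (-0.99, adjusted p = 0.0318) and Ddit3 (-0.46, adjusted p = 0.0398).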

How the results depend on the processing

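The count of 27 probe sets between the pristane weeks became 116 with each array centred on its median, 133 above the 40th percentile, 15 with the adrenal covariate, and 0 at an adjusted p of 0.01. Over 2-fold it went from 1 to 3 with centring, 6 with the filter, 7 with all 11 groups fitted together, and 0 with the adrenal covariate, at 0.01 and with the mean over the probe sets of a gene. The untreated count of 0 became 1 with centring, 2 with the filter, 9 with all groups and 2 with the mean. The interaction count of 14 became 40 with centring, 30 with quantile normalization, 52 with the filter, 2 with the mean, and 0 at 0.01 and with the adrenal covariate. The causes were not tested. The filter and the mean also left fewer tests to adjust for, and the part of that in these counts was not tested.

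Replicate numbers did not pair mice: over 9 pairs correlations ran from -0.478 to 0.18 and 0 mice matched their own number best. With a replicate block, 0 probe sets passed between the pristane weeks (0 over 2-fold), 0 in untreated mice and 31 in the interaction.

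Leaving out 1 mouse at a time gave 4 to 66 probe sets, 0 to 6 over 2-fold, 0 to 1 in untreated mice and 0 to 36 in the interaction. Of week 2 pristane, mice 1 and 2 (4 each), 5 and 7 (5 each), 9 (15) and 3 (66), and of week 4, mice 7 (8), 10 (41) and 8 (44), moved the first count over 1.5 times. In the interaction these were pristane week 2 mice 9 (0), 7 (9), 2 (22) and 3 (36), pristane week 4 mice 3 and 7 (0 each) and 1 (29), untreated week 2 mice 3 and 4 (0 each), 7 (8) and 10 (27), and untreated week 4 mice 4 and 6 (0 each), 8 (7) and 3 (27).

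Directions turned in 13 of 2632 comparisons for named genes. With the adrenal covariate these were C4b (0.050), Star (0.14) and Th (0.26), with the mean over probe sets Havcr1 (0.096), and with 1 mouse left out, over ranges of -0.33 to 0.043 Ifit1 (above 0 without week 4 mouse 1), of -0.19 to 0.066 Mx1 and of -0.078 to 0.0055 Havcr1. A further 178 lost and 91 gained the call.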

Other observations

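Among lists not described so far, the interferon transcription factors had 4 of 10 members higher at an unadjusted p under 0.05 between the pristane weeks. The share of all genes was 6.22%, and none of the list passed. Irf8, which directs monocyte development, ranged from 4.40 to 5.16 at week 2 and from 4.95 to 5.61 at week 4 (log2 change 0.45, adjusted p = 0.115), and Irf1, Irf2 and Stat3 had 0.29, 0.24 and 0.14. Of 12 cytokines 2 were higher at that threshold, and 4 without mouse 1. Il1b, made by activated macrophages, ranged from 4.51 to 5.20 and from 4.68 to 6.62 (0.67, adjusted p = 0.181), and Tnfsf13b, the B cell survival factor BAFF, from 5.35 to 5.81 and from 5.68 to 6.09 (0.28, adjusted p = 0.119).

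Of 21 fatty acid oxidation genes 6 were higher and 1, Ppara, lower at that threshold (6 and 0 without mouse 1), beside 6.22% and 6.13% of all genes. Pdk4, which holds back pyruvate oxidation, had 0.44 (adjusted p = 0.368). Lipogenesis genes had a median log2 change of -0.18, with 1 of 9 lower at that threshold and 5 without mouse 1, and Thrsp, an inducer of fat synthesis that adipose tissue also expresses, had -0.99 (adjusted p = 0.560). Perirenal fat markers had a median of -0.61 in the same mice, and their part in these values was not tested. Nephron segment lists had medians between -0.04 for the collecting duct and 0.09 for the thick ascending limb.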
